A study of Mus musculus with 2 samples.

Results

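Muscle stem cells, also called satellite cells, were taken here as the nuclei with at least 1 UMI (unique molecular identifier, 1 captured RNA molecule) for at least 2 of the 4 genes Pax7, Calcr, Megf10 and Chodl. By this rule 354 of the 16530 nuclei were members, chosen by the levels of those 4 genes alone. The nuclei came from 2 hindlimb muscles of wild-type C57BL/6 mice aged 12 weeks, the gastrocnemius and the plantaris, and no treatment or allele was named for either. Each muscle gave 1 library of single-nucleus RNA, so nothing was replicated and no difference between the muscles could be tested. The gastrocnemius library held 7374 nuclei and 19048595 UMIs, and the plantaris library held 9156 nuclei and 29248275 UMIs. The members numbered 112 in gastrocnemius, 1.52% of its nuclei (95% Clopper-Pearson interval 1.25 to 1.82%), and 242 in plantaris, 2.64% (2.32 to 2.99%). All intervals given cover counting error only, not the spread between animals.

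Satellite cells lie between the muscle fibre and its basal lamina and are the source of new myonuclei when muscle grows or is injured. In uninjured adult muscle most of them are quiescent: they express the transcription factor Pax7, hold Notch signalling active and keep the cell cycle and the myogenic differentiation programme off. Calcr is the calcitonin receptor, a G protein-coupled receptor of quiescent satellite cells. Megf10 is a transmembrane protein with EGF-like repeats that is expressed in satellite cells, and Chodl is chondrolectin, a membrane protein with a C-type lectin domain. In the mouse genome (GRCm38, GENCODE M21 annotation) the gene body of Pax7 lies at chr4:139737062-139833528 on the minus strand, that of Calcr at chr6:3685680-3764714 on the minus strand and that of Chodl at chr16:78930948-78951733 on the plus strand.

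The promoters of genes high in the members were searched for a pair of short motifs that belong to regulators of these cells. The letters TGGGAA are the core bound by RBPJ, the DNA-binding partner of Notch, and CAGCTG is an E-box, the kind of site bound by myogenic basic helix-loop-helix factors. Both strands were searched in windows of 300 bases around RefSeq start sites (GRCm38.p6), and the motifs do not overlap in the sequences printed. Of the 20 genes named below as highest in the members, 13 had RefSeq promoter windows, 19 in all. TGGGAA stood in 7 of those 19 windows, from 6 genes, against 25.6% of 32851 mouse windows, and CAGCTG stood in 4 of them, from 3 genes, against 16.3%. The single window of Pax7 and both windows of Calcr held neither motif. The windows of the 20 genes were searched after the genes' values had been seen, and a match is a stretch of letters, not a measured binding site. A promoter is shown for each motif, as the 250 bases upstream of the start site read 5′ to 3′ on the gene's own strand, with the motif on either strand in capitals. The first belongs to Hs6st3 (chr14:119138015-119138264, plus strand), the gene with the most UMIs among the 20, and has 1 E-box. The second belongs to Cd200 (chr16:45409054-45409303, minus strand), a surface glycoprotein that restrains immune cells, and has the RBPJ core once on each strand.
Hs6st3: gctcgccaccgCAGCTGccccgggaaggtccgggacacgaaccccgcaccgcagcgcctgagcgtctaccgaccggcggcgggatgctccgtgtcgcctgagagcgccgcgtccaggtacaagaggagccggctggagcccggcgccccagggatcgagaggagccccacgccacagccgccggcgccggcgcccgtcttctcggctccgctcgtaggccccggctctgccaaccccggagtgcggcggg
Cd200: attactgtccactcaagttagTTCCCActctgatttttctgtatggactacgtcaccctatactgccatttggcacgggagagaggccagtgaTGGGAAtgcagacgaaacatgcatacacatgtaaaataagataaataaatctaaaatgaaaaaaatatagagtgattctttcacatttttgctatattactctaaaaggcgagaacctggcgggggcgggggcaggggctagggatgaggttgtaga

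Most members sat together when all nuclei were grouped by their expression, and a minority did not. Of the 354 members, 260 fell in a single cluster, named muscle stem cells because it led in the same 4 genes: 88 of 112 in gastrocnemius (78.6%, 69.8 to 85.8%) and 172 of 242 in plantaris (71.1%). Since the rule and the name share those genes, the gathering of members there is a description and no check of their identity. The remaining 94 lay in clusters led by other genes. They were 23 nuclei among macrophages, 20 in an unnamed cluster led by Myh11 and Kcnj8, 17 among tenocytes, 15 among myonuclei, 14 among mesenchymal progenitors, 3 among vascular endothelium and 2 among Schwann cells, each of these names resting on other marker genes. In each class the median depth of these members was above that of the class, although single members were not always deeper: the Schwann cell member in plantaris had 843 UMIs against 1153 for its cluster there, 1 gastrocnemius member in a myonuclear cluster had 2526 against 2701.5, and 2 plantaris members in another had a median of 2573.5 against 3115. The 23 members among macrophages had a median of 8340 UMIs, against 1104 for the whole class, the 15 among myonuclei had 7718 against 2998 (10 of them lay in 1 cluster, with medians of 13021.5 and 12476.5 UMIs against 980.5 and 963 for that cluster), and the 20 in the unnamed cluster had 4623.5 against 1646. No doublet caller was run, so nuclei captured in pairs were not removed, and their part in the 94 was not tested.

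**Figure D1:**
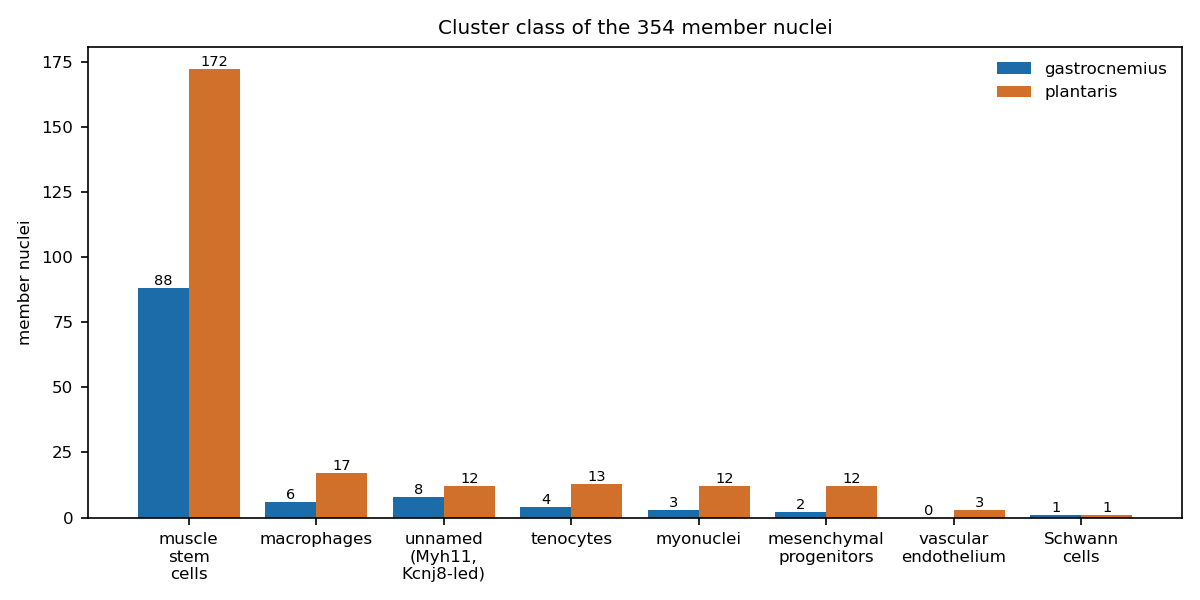
Number of member nuclei (y axis) by the class of the cluster that held them (x axis), for gastrocnemius (blue) and plantaris (orange), with the count over each bar. The stem cell cluster holds 88 gastrocnemius and 172 plantaris members, and no other class holds more than 17 from 1 library.

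**Figure D2:**
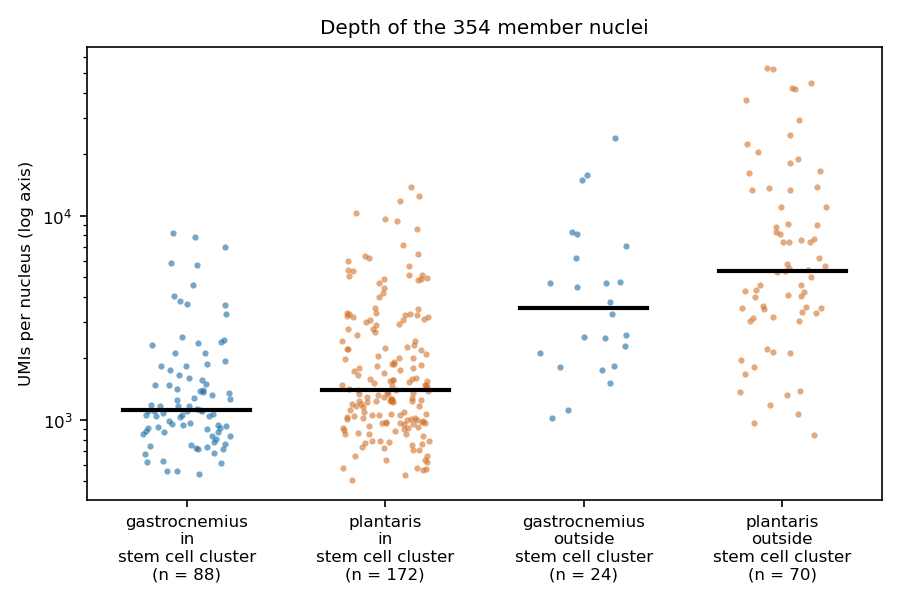
UMIs per member nucleus on a log axis (y), 1 point a nucleus, for members inside and outside the stem cell cluster in each library (x), with the median as a black line. Medians were 1114 and 1405 UMIs inside the cluster and 3525 and 5382.5 outside it, for gastrocnemius and plantaris.

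Members outside the cluster weighed more in summed counts than in nuclei. They gave 131056 of the 280537 member UMIs in gastrocnemius and 730182 of 1128430 in plantaris. Markers of macrophages, pericytes, smooth muscle, tenocytes and lymphocytes were higher in them than in the members inside the cluster, and those of some other types were not. The clusters were named with these same marker lists, so this is a description and no check of what these members are. The macrophage markers (6 genes, Mrc1 and F13a1 among them) summed to 334 CPM (counts scaled to 1000000 UMIs) in gastrocnemius members inside the cluster and 279 CPM in plantaris members inside it, against 1511 and 893 CPM in members outside. Rbpj, 1 of the 6 and also a gene of the Notch pathway, gave 44 of the 50 UMIs inside the cluster in gastrocnemius and 101 of the 111 in plantaris, and Adgre1, Cd163 and Csf1r were at 0 there in gastrocnemius. Pericyte markers gave 633 and 433 CPM outside and 207 and 221 CPM inside, beside 431 and 419.9 CPM in all other nuclei. Smooth muscle markers gave 366 and 112 CPM outside and 6.69 and 27.6 CPM inside, where Myh11, Acta2, Cnn1 and Lmod1 were at 0 in gastrocnemius. Tenocyte markers gave 214 and 211 CPM outside and 60.2 and 47.7 CPM inside. Mesenchymal markers differed less, with 1953 and 1845 CPM outside and 1907 and 1655 CPM inside. Endothelial markers gave 15.3 and 72.6 CPM outside and 20.1 and 37.7 CPM inside, and lymphocyte markers 30.5 and 46.6 CPM outside and 0 and 2.51 CPM inside. Schwann cell markers gave 99.2 and 32.9 CPM outside and 6.69 and 90.4 CPM inside, and markers of the neuromuscular junction 359 and 227 CPM outside and 549 and 291 CPM inside. Because of this, values are given below for all members and again for the 260 inside the cluster, called stem-cluster members, where the difference matters.

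Transcripts of the muscle fibre were also counted in the members. The 9 myonuclear markers, contractile and calcium-handling genes such as Ttn and Atp2a1, made up a median of 1.18% of a member's UMIs in gastrocnemius and 0.866% in plantaris. The same share was 6.47% and 5.40% in the other nuclei, most of them myonuclei. It was 0.812% and 0.543% in the other mononuclear classes (macrophages, mesenchymal progenitors, tenocytes, endothelium and the like). Here and below those classes leave out the unnamed cluster led by Myh11 and Kcnj8. The members' share thus lay above that of the other mononuclear classes pooled, mostly mesenchymal progenitors, and well below that of the other nuclei as a whole. Single classes differed. In summed counts the 9 markers gave 30024 and 28472 CPM in members inside the stem cell cluster. They gave 12460 and 13628 CPM in mesenchymal progenitors and 29998 and 28566 CPM in macrophages. Tenocytes had 31791 and 21839 CPM, endothelium 18218 and 29517 CPM, and the unnamed cluster 31558 and 30209 CPM. The 2 libraries shared 17 cell barcodes, and none of these marked a member.

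The 4 genes that chose the members were seen in different mixtures. Pax7 with Chodl was the most frequent combination (56 nuclei), followed by Pax7, Calcr and Chodl (53), all 4 genes (52), Pax7, Megf10 and Chodl (38) and Pax7 with Megf10 (33). Exactly 2 genes were found in 54 gastrocnemius and 121 plantaris nuclei, 3 in 43 and 84, and all 4 in 15 and 37. Some combinations lay almost wholly in the stem cell cluster and others did not: 20 of the 21 nuclei with Calcr and Chodl lay in it, but 12 of the 21 with Megf10 and Chodl and 19 of the 33 with Pax7 and Megf10. Of the 17 members among tenocytes, 16 had Chodl, 13 Megf10, 8 Pax7 and 6 Calcr. In tenocytes that were not members the 4 genes summed to 319 CPM in gastrocnemius and 157 CPM in plantaris. In all nuclei that were not members they summed to 15.8 and 19.2 CPM. Pax7 and Calcr were at 0 in the gastrocnemius tenocytes that were not members. Just outside the rule stood 242 gastrocnemius and 425 plantaris nuclei with exactly 1 of the genes, 35 and 66 of them in the stem cell cluster. A further 14 and 15 nuclei of that cluster had none of the 4, so the nuclei used as comparison held 49 and 81 nuclei of the cluster. These are values of the genes that made the rule and are a description only.

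Fewer nuclei met the rule when all were brought to 1 depth. When each nucleus was thinned to 1000 UMIs, leaving out 1084 gastrocnemius and 1070 plantaris nuclei with fewer, 50 of 6290 gastrocnemius nuclei (0.795%, 0.591 to 1.05%) and 96 of 8086 plantaris nuclei (1.19%, 0.963 to 1.45%) met it. Before thinning, 79 and 196 of these same nuclei did, 1.26% and 2.42%. Plantaris had the larger share both ways, and the thinned intervals overlapped. The stem cell cluster as a whole held 137 gastrocnemius nuclei (1.86%, 1.56 to 2.19%) and 253 plantaris nuclei (2.76%, 2.44 to 3.12%). With 1 library each, muscle, animal and library cannot be told apart.

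The genes that stood highest in the members beside the rule genes included receptors, matrix and adhesion proteins and a Notch target. Levels were compared as the log2 ratio of summed CPM in members to summed CPM in all other nuclei of the same library. A gene counted as higher when the ratio was 4-fold or more in both libraries and the gene had at least 20 UMIs in the members. By that rule 208 of 7783 genes (2.67%) were higher in members and 1 (0.0128%) was lower. With the stem-cluster members only, 237 of 4908 genes (4.83%) were higher and 6 (0.122%) lower. By the firmness of their ratios 20 genes were picked, leaving out the rule genes, and 19 of them are described here, with log2 ratios from 3.64 (Map2 in plantaris) to 7.20 (Fgfr4 in gastrocnemius). Their intervals lay above 0 in both libraries, which the way they were picked ensures.

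Hs6st3 encodes an enzyme that adds sulfate to heparan sulfate, the cell-surface sugar chain that holds growth factors; its gene spans chr14:119138341-119869815. It had 301 UMIs in gastrocnemius members (1073 CPM) and 745 in plantaris members (660 CPM), against 13 and 10.1 CPM in the other nuclei. The log2 ratios were 6.37 (6.12 to 6.62) and 6.04 (5.84 to 6.24). Stem-cluster members had 1646 and 1416 CPM, so the muscles differed less once the other clusters were set aside. Fgfr4, a fibroblast growth factor receptor of myogenic cells (chr13:55152640-55168759), had 235 CPM in gastrocnemius members and 153 in plantaris members, against 1.60 and 2.31 CPM elsewhere. Its log2 ratios of 7.20 (6.56 to 7.88) and 6.05 (5.63 to 6.49) rested on 66 and 173 UMIs. Tenm4, a teneurin that binds cells to one another (chr7:96171246-96911093), had 798 and 432 CPM against 11.9 and 11.0 CPM, with log2 ratios of 6.07 and 5.30. Each of these 3 genes was thus far above its level in other nuclei in both libraries.

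The rest were of several kinds. Among matrix and surface proteins, Lama3, a laminin chain, had log2 ratios of 5.86 and 4.42 in gastrocnemius and plantaris, Frem1, a matrix protein of basement membranes, 5.86 and 4.02, Thsd4, a protein of fibrillin matrix, 5.34 and 4.75, and Cd200 4.38 and 4.06. Ptprz1, a receptor tyrosine phosphatase, had 6.41 and 5.41. Grik3, a subunit of kainate-type glutamate receptors, had 6.44 and 4.89 on 22 and 31 UMIs. Among signalling proteins, Pde1c, a calmodulin-dependent cyclic nucleotide phosphodiesterase, had 4.19 and 4.56, Dclk3, a doublecortin-like kinase, 6.18 and 5.12, and Bcar3, an adaptor of focal adhesion signalling, 4.52 and 4.23. Gxylt2, an enzyme that extends the O-glucose sugars of Notch receptors, had 4.98 and 3.79. Map2, a microtubule-associated protein, Clmn, an actin-binding membrane protein, and Sytl2, an effector of vesicle transport, had 4.06 and 3.64, 5.47 and 4.91, and 4.06 and 3.71. The noncoding RNA Gm26834 (chr16:29811058-29837814) had 6.72 and 5.94 on 109 and 167 UMIs.

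**Figure D3:**
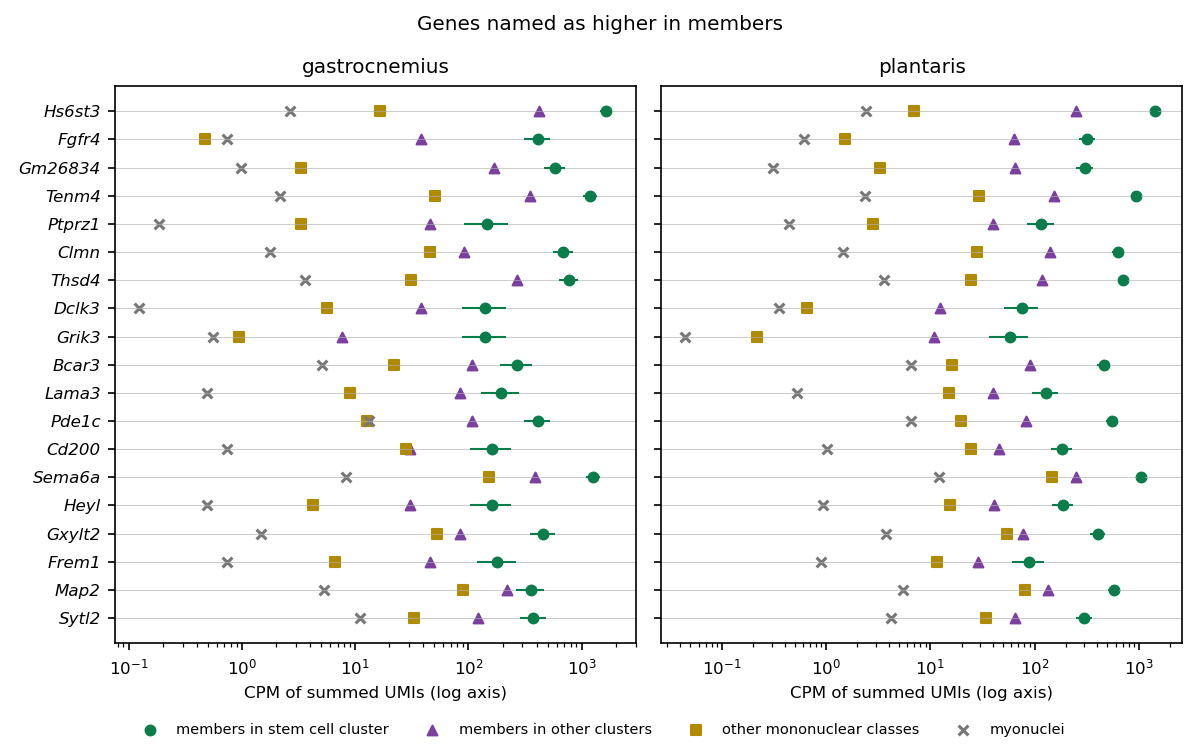
CPM of summed UMIs on a log axis (x, its own range in each panel) of 19 genes highest in members (y), in stem-cluster members (green, with 95% Poisson intervals), members in other clusters (purple), other mononuclear classes (yellow) and myonuclei (grey). The other mononuclear classes leave out the unnamed cluster led by Myh11 and Kcnj8. Among the sets shown, the stem-cluster members have the highest level of every gene in both libraries, such as 1646 and 1416 CPM for Hs6st3. The members in other clusters come next.

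Against the other mononuclear classes alone, 73 of 8152 genes (0.895%) were higher in the members. The 20 genes had log2 ratios from 1.70 (Map2 in gastrocnemius) to 8.96 (Fgfr4 in gastrocnemius) in that comparison. Hs6st3 kept 6.02 and 6.56, whereas Cd200 had 1.82 and 1.93 and Gxylt2 2.41 and 1.82. The summed level of the 20 genes was higher in nuclei with 2 or more rule genes than in those with fewer, which the way they were picked ensures. Above 2 rule genes it did not rise further in gastrocnemius. In gastrocnemius it was 133 CPM in nuclei with none of the 4 genes, 894 CPM with 1, 6920 CPM with 2, 6123 CPM with 3 and 5967 CPM with 4. In plantaris it was 141, 834, 3334, 4265 and 6564 CPM. Inside the stem cell cluster the nuclei with none of the rule genes had 6667 CPM (5523 to 7979) in gastrocnemius and 5830 CPM (4878 to 6914) in plantaris. With 1, 2, 3 and 4 rule genes the levels there were 10736, 8642, 10882 and 10317 CPM in gastrocnemius and 7329, 8318, 8290.1 and 9459 CPM in plantaris, so gastrocnemius showed no order from 1 gene upward. The cluster was built from expression that includes such genes, so this is again a description.

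**Figure D4:**
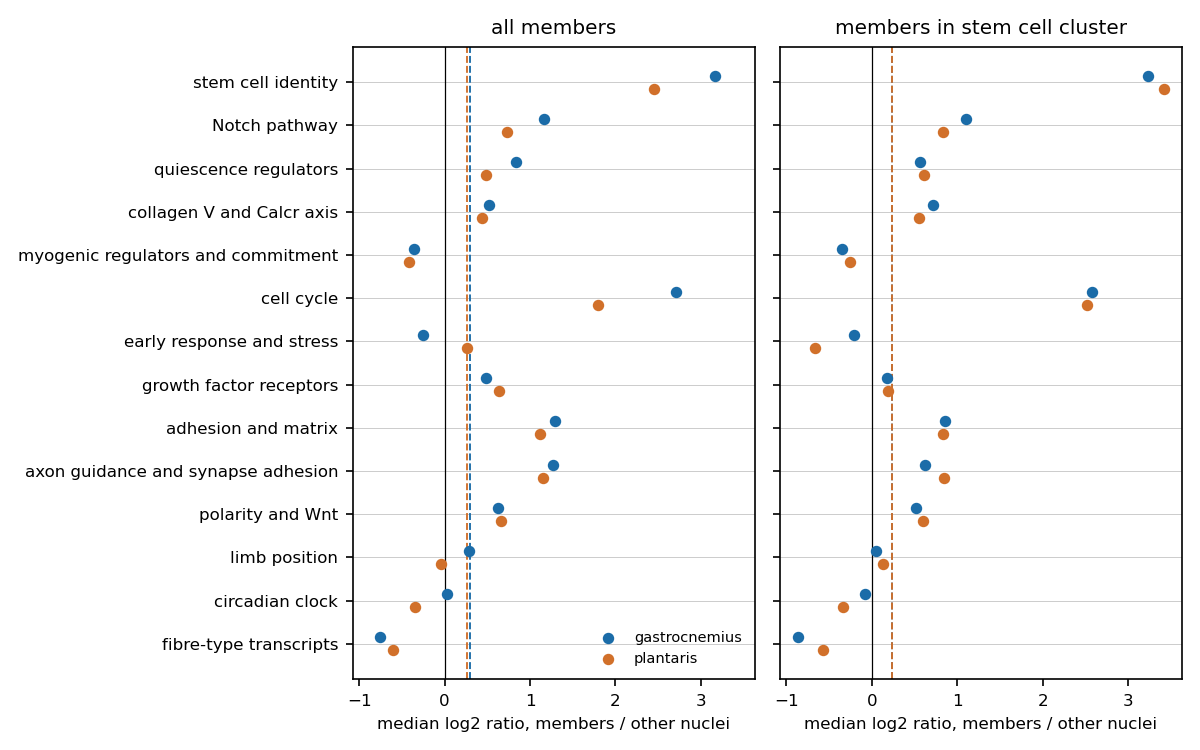
Median log2 ratio of member CPM to other-nuclei CPM (x) for the measured genes of 14 gene lists (y), for all members (left) and stem-cluster members (right), in gastrocnemius (blue) and plantaris (orange). Dashed lines mark the median of all genes measured, and the stem cell identity list lies furthest above them with medians of 3.17 and 2.45 for all members.

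Lists of genes were read by their counts and medians beside those of all genes measured, which were 0.30 in gastrocnemius and 0.26 in plantaris. The identity list held 25 genes known from satellite cells. Like the other lists it was chosen with earlier results of these data known. It shared Fgfr4, Tenm4 and Heyl with the genes picked as highest in members, so its medians are a description only. Of its genes 18 were measured and 9 were higher by the 4-fold rule, with medians of 3.17 and 2.45. Among stem-cluster members 10 of 16 were higher, with medians of 3.24 and 3.42 beside 0.24 and 0.23 for all genes. Ncam1, a neural cell adhesion molecule found on satellite cells, had 117 and 392 UMIs and log2 ratios of 3.27 and 2.82. Cdh15, M-cadherin, which joins the satellite cell to the fibre, had 6 and 24 UMIs and ratios of 3.06 (1.55 to 4.29) and 2.08 (1.40 to 2.72). Chrdl2, a chordin-like BMP antagonist, had 15 and 79 UMIs and ratios of 4.84 and 4.42. Vcam1, an adhesion receptor of satellite cells, had 2 and 34 UMIs, with ratios of 1.82 (-1.28 to 3.77) and 4.48 (3.77 to 5.18), so only the plantaris value was clear of 0. Pax3, the paralogue of Pax7 that is kept in satellite cells of some muscles, had 0 UMIs in gastrocnemius members and 19 in plantaris members, 11 of these in the stem cell cluster. Other nuclei held Pax3 as well, at 3.36 and 7.61 CPM. Asb5 lay below 0 in both libraries, at -1.17 and -0.83.

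The Notch pathway sends a signal from ligands on a neighbour, such as Dll and Jag proteins, through cleaved Notch receptors to RBPJ and its targets of the Hes and Hey families. In gastrocnemius 13 of 14 measured genes of the Notch list lay above 0 and in plantaris 15 of 15. The medians were 1.16 and 0.73, beside 0.30 and 0.26 for all genes, and 3 genes passed the 4-fold rule in both libraries. These were the receptors Notch1 and Notch3 and the target Heyl. Among stem-cluster members 11 of 12 measured genes lay above 0 in gastrocnemius and 9 of 12 in plantaris. The medians there were 1.10 and 0.83, beside 0.24 and 0.23 for all genes. Notch3 (chr17:32120820-32166852) had 135 UMIs in gastrocnemius members and 332 in plantaris members, 481 and 294 CPM against 24.2 and 26.3 CPM in other nuclei. Its stem-cluster levels were 528 and 562 CPM, and its ratios over the other mononuclear classes were 4.82 and 4.44. Those classes leave out the unnamed cluster led by Myh11 and Kcnj8, so these ratios are not set against it. Pericytes and smooth muscle express Notch3 too, and their markers were higher in the members outside the stem cell cluster, as given above. Heyl (chr4:123233556-123249875) had 28 and 105 UMIs, 99.8 and 93.0 CPM against 3.09 and 5.97 CPM, with log2 ratios of 5.01 (4.31 to 5.69) and 3.96 (3.60 to 4.32). Notch1 gave 10 and 31 UMIs. Notch2 had ratios of 2.09 and 1.37 over all other nuclei but 0.38 and -0.10 over the other mononuclear classes. The remaining targets were sparse: Hes1 had 7 and 21 UMIs and Hey1 had 1 in each library. Among ligands, Jag1 had 20 and 68 UMIs. Rbpj had ratios of 1.19 and 0.73 for all members and 0.56 and -0.04 for stem-cluster members; it was also 1 of the macrophage markers used here.

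Genes that hold satellite cells in quiescence were mixed. Of 29 listed, 25 were measured and 5 were higher by the 4-fold rule: Tenm4, Spry1, Gas1, Chrdl2 and Btg1. The medians were 0.84 and 0.48 for all members and 0.56 and 0.61 for stem-cluster members, where 4 of 23 were higher. Spry1, an inhibitor of receptor tyrosine kinase signalling needed for return to quiescence, had 4 and 32 UMIs and ratios of 2.85 and 3.08. Gas1, a membrane protein of growth arrest, had 16 and 39 UMIs and ratios of 3.80 and 2.65. Foxo3, a transcription factor that keeps satellite cells quiescent, had 148 and 514 UMIs and ratios of 1.37 and 1.26. Foxo1 had ratios of 0.11 (-0.07 to 0.29) and 0.48 (0.37 to 0.59). Tek, the angiopoietin receptor, had 1.07 and 1.28 over all other nuclei and -1.71 and -0.97 over the other mononuclear classes, which include endothelium. Tob2, an antiproliferative protein, lay below 0 at -0.48 and -0.69.

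Calcr signals through the stimulatory G protein and protein kinase A to the Lats kinases and Yap1, and collagen V is a ligand that satellite cells make for it. No gene of the 15 measured in that list passed the 4-fold rule for all members, although 14 of them lay above 0 in each library, with medians of 0.52 and 0.44. Among stem-cluster members 1 of 12 passed it, Gnas, which encodes the stimulatory G protein alpha subunit. Gnas had 206 and 724 UMIs in members, and 1064 and 1067 CPM in stem-cluster members, a log2 ratio of 2.81 and 2.31 over other nuclei. Its locus makes several overlapping transcripts, which the counts cannot separate. The 3 collagen V chains were higher than in all other nuclei and lower than in the other mononuclear classes. Col5a1 had ratios of 1.56 and 1.43 against all other nuclei and -1.16 and -0.76 against the mononuclear classes. Col5a2 had 1.73 and 1.26 against all others and -1.02 and -0.99 against the mononuclear classes, and Col5a3 1.15 and 1.21 against -1.46 and -0.88. Yap1 had 1.04 (0.59 to 1.46) in gastrocnemius and 0.11 (-0.14 to 0.35) in plantaris.

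The factors that commit satellite cells to differentiation gave few or no UMIs in the members. Myf5, which marks committed satellite cells, had 6 and 15 UMIs and ratios of 4.65 (3.01 to 6.08) and 3.69 (2.68 to 4.63). Myod1, the factor of activated myoblasts, had 2 and 1 UMIs in all members and 0 in the stem-cluster members of both libraries, while other nuclei held 1.39 and 6.69 CPM. Myog, the factor of differentiation, gave 0 UMIs in both libraries, as did the fusion genes Mymk and Mymx and the developmental myosins Myh3 and Myh8. A count of 0 does not show absence, and ratios replace it by a floor of 3 UMIs in each library's members. Of the 26 genes in that list 13 were measured, and 2 were higher, Myf5 and Cdh15, with medians of -0.36 and -0.41. Mef2c, a factor of muscle gene expression in myonuclei, had ratios of -1.09 and -0.99, and Eya4, a transcriptional cofactor of myogenic cells, -0.39 and -0.62.

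Most listed genes of proliferation gave too few UMIs in the members to be measured. Mki67, a marker of cycling cells, had 1 UMI in the gastrocnemius members and 0 in the plantaris members, and Top2a and Cdk1 had 0 in both. Such counts of 0 do not show absence, and whether these genes were lower than in other nuclei was not tested. Of 25 cell cycle genes 3 reached the count to be measured, and Ccnd3 alone passed the 4-fold rule. All 3 measured genes lay above 0 in both libraries. A gene could be measured through its UMIs in the members alone, which favours genes high in them. The values of these 3 genes are thus a description and do not speak for the list. Their medians were 2.71 in gastrocnemius and 1.80 in plantaris, beside 0.30 and 0.26 for all genes. Ccnd3, cyclin D3, had 162 and 617 UMIs, 577 and 547 CPM against 88.4 and 108 CPM in other nuclei, with log2 ratios of 2.71 (2.47 to 2.94) and 2.34 (2.21 to 2.46). Its level equalled that of the other mononuclear classes within 0.05 and 0.07 on the log2 scale. Cdk6, a kinase that cyclin D partners with, had 17 and 28 UMIs and ratios of 3.13 and 1.80, and Ccnd2 had 4 and 19 UMIs.

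Receptors for growth factors were measured for 23 of 29 genes. Fgfr4 and Pdgfrl, a receptor-like protein without a kinase domain, were the 2 that passed the 4-fold rule, Pdgfrl with ratios of 3.57 and 2.50. Egfr, the epidermal growth factor receptor, had 346 and 1707 UMIs and ratios of 1.69 and 1.47, but -1.05 and -0.74 over the other mononuclear classes. Fgfr1 had 178 and 524 UMIs and 0.85 and 0.78. Igf1r, the receptor for insulin-like growth factor, had 222 and 878 UMIs and 0.80 and 0.86. Ghr, the growth hormone receptor, lay lower in members at -0.58 and -0.61. The list's medians were 0.48 and 0.64 for all members and 0.18 and 0.18 for stem-cluster members, which is below the all-gene medians of 0.24 and 0.23.

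Adhesion and matrix genes lay above the all-gene median in both libraries but seldom reached 4-fold. Of 38 genes 34 were measured, 31 and 30 lay above 0, the medians were 1.29 and 1.11, and only Cdh15 passed the rule. Stem-cluster members gave medians of 0.85 and 0.84 over 27 measured genes. Lama2, the laminin alpha chain of the muscle basal lamina, had ratios of 1.20 and 1.16 against all other nuclei and -0.86 and -0.31 against the other mononuclear classes. Utrn, utrophin, the relative of dystrophin, had 1.95 and 1.51. Dmd, dystrophin itself, which gives satellite cells polarity and fibres their stability, had 2540 and 8280 UMIs and was lower than in the other nuclei at -0.84 and -0.79, yet higher than in the other mononuclear classes at 1.02 and 0.88. Dag1, dystroglycan, had 0.20 and 0.50 over all others and 1.13 and 1.31 over the mononuclear classes.

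Genes of axon guidance and synapse adhesion were measured for 25 of 35 listed, and 3 passed the rule: Tenm4, Sema6a and Epha4. Sema6a, a transmembrane semaphorin, had 240 and 600 UMIs, 856 and 532 CPM against 27.6 and 38.4 CPM, with ratios of 4.95 and 3.79. The list's medians were 1.27 and 1.15. Robo1, a receptor for Slit ligands, had ratios of 2.17 and 1.77 over all other nuclei and -0.63 and -0.57 over the other mononuclear classes. Of 34 genes of Wnt signalling and polarity, 22 were measured, the medians were 0.63 and 0.66, and 2 passed. Ror1, a Wnt5a receptor with a tyrosine kinase-like domain (chr4:100095791-100444765), had 786 and 1855 UMIs, 2802 and 1644 CPM against 224 and 229 CPM, with log2 ratios of 3.64 (3.53 to 3.75) and 2.84 (2.77 to 2.92). Gli2, a transcription factor of Hedgehog signalling, had 2.95 and 2.51. Pard3, a polarity protein that is placed to one side of dividing satellite cells, had 0.31 and 0.26, near the median of all genes.

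Few genes were lower in the members at these counts, and the number moved with the nuclei used, to 47 after thinning to 1000 UMIs and 200 in members low in myonuclear markers. The number of genes tested was not the same in these settings. Members low in myonuclear markers were chosen for few fibre transcripts and compared with nuclei that were mostly myonuclei, so the 200 is a description only. Kcnh7, a voltage-gated potassium channel gene, was the 1 gene lower in all members, with 1 and 4 UMIs and log2 ratios of -3.36 and -3.37. It was also among the 6 lower in stem-cluster members, with Col24a1, Wnt5b, 1700027J07Rik, 4930402D18Rik and Gm35576. Transcripts of fibre contraction lay below the other nuclei without reaching 4-fold: the fibre-type list had medians of -0.75 and -0.60, and 12 of 14 measured genes in gastrocnemius and 14 of 16 in plantaris lay below 0. Myh4, the myosin of the fastest fibres, had ratios of -0.86 and -0.77 over all other nuclei and 0.84 and 0.48 over the other mononuclear classes.

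Between the muscles, Col19a1 and Map1b were lower and Hs3st4 higher in plantaris stem cells, while the intervals of Hs6st3, Fgfr4, Notch3 and Heyl included 0. Among genes with at least 20 UMIs over the members of both libraries, 782 of 7567 (10.3%) were at least 2-fold higher in plantaris members and 238 (3.15%) at least 2-fold lower. The counting interval lay above 0 for 558 genes (7.37%) and below 0 for 508 (6.71%). Among stem-cluster members 432 of 4640 (9.31%) were 2-fold higher and 162 (3.49%) 2-fold lower, with 306 (6.59%) and 298 (6.42%) by the interval. The median gene had a log2 ratio of plantaris to gastrocnemius of 0.09 for all members and 0.07 for stem-cluster members. Without a second library of either muscle, none of these counts can be set against the spread between animals. Nuclei outside the stem cell cluster made up more of the plantaris members' UMIs, so the values below are for stem-cluster members unless said otherwise, with the ratio in the library's other nuclei beside them. The genes named are those whose interval lay furthest from 0, taken by 1 rule over all members and, chosen after seeing the data, by the same rule within the cluster.

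Of the 20 genes highest in members, 10 had a counting interval that included 0 between the muscles, 7 lay below 0 and 3 above. Over all genes 6.42% lay below 0 and 6.59% above. Hs6st3 had a log2 ratio of -0.22 (-0.44 to 0.01), Fgfr4 -0.36 (-0.81 to 0.11), Heyl 0.23 (-0.45 to 0.96), Notch3 0.09 (-0.29 to 0.48), Gnas 0.00 (-0.26 to 0.28) and Clmn -0.12 (-0.46 to 0.22), all with intervals that included 0. The interval of Heyl reached nearly 2-fold. Tenm4 was slightly lower in plantaris at -0.34 (-0.60 to -0.08), Ror1 at -0.40 (-0.55 to -0.25) and Gm26834 more so at -0.95 (-1.36 to -0.53). Grik3, with 21 and 23 UMIs, had -1.28 (-2.20 to -0.36). Over all members 14 of the 20 lay below 0 and none above, beside 6.71% and 7.37% of all genes. Hs6st3 had -0.70 and Tenm4 -0.89 there, where nuclei from other clusters entered the plantaris sums more heavily. Map2 at 0.69 (0.25 to 1.15) and Bcar3 at 0.79 (0.29 to 1.32) were higher in plantaris stem-cluster members. The identity list had no direction that held: its median was 0.25 over 16 genes in stem-cluster members, with 10 above 0, and -0.22 over 18 genes in all members, with 6 above 0.

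Col19a1 and Map1b were lower in plantaris stem cells. Col19a1, a fibril-associated collagen gene at chr1:24261890-24587472, had 110 UMIs in gastrocnemius stem-cluster members (736 CPM) and 84 in plantaris ones (211 CPM), a log2 ratio of -1.80 (-2.23 to -1.38). In all other nuclei the ratio was -0.11, and over all members it was -2.04 (-2.41 to -1.68). Map1b, a microtubule-associated protein gene at chr13:99421446-99516540, had 148 UMIs (990 CPM) and 123 UMIs (309 CPM), a ratio of -1.68 (-2.04 to -1.33), where the other nuclei went the opposite way at 0.73. Neither difference rested on a few nuclei: Col19a1 was seen in 49 of 88 gastrocnemius and 41 of 172 plantaris stem-cluster members, and Map1b in 46 and 52.

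Several other genes were lower in plantaris stem-cluster members on smaller counts. Nkain2, a protein that interacts with the sodium pump, had 54 and 63 UMIs, 361 and 158 CPM, and a ratio of -1.19 (-1.74 to -0.64), beside 0.56 in the other nuclei. Rerg, a small GTPase of the Ras family, had 25 and 11 UMIs and -2.60 (-3.77 to -1.52) beside 0.20. Tmem61 had 18 and 9 UMIs and -2.41, with -1.67 in other nuclei, and Fndc3c1 had 14 and 7 UMIs and -2.41 beside -0.26. Grm8, a metabotropic glutamate receptor, had 50 and 32 UMIs and -2.06 (-2.75 to -1.39) beside -0.44. Slc7a8, an amino acid transporter, had -1.86, and Gm19299 had -2.75, but the other nuclei moved with them at -1.20 and -3.11.

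In the other direction Hs3st4, Vim and Vcam1 were higher in plantaris stem-cluster members. Hs3st4, which adds 3-O sulfate to heparan sulfate (chr7:123982869-124398989), had 1 UMI in gastrocnemius stem-cluster members and 44 in plantaris ones, 6.69 and 110 CPM, a ratio of 4.05 (1.49 to 9.38). The 44 UMIs came from 18 nuclei. It was sparse in all other nuclei, at 0.48 and 0.747 CPM, where the ratio was 0.64. Vim, the intermediate filament vimentin, had 1 and 37 UMIs and a ratio of 3.80 (1.23 to 9.14) beside 0.96. Robo1 had 388 and 718 CPM and a ratio of 0.89 (0.48 to 1.32), the same as the 0.88 of other nuclei. Ociad1 had 2 and 43 UMIs and 3.01 (1.07 to 6.10) beside 0.30. Vcam1, with 2 and 24 UMIs, had 2.17 (0.16 to 5.30) beside -0.58. Dag1 had 421 and 711 CPM and 0.75 (0.36 to 1.17) beside 0.09, and Mef2d, a factor of muscle gene expression, 17 and 109 UMIs and 1.27 (0.52 to 2.10) beside 0.52.

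**Figure D5:**
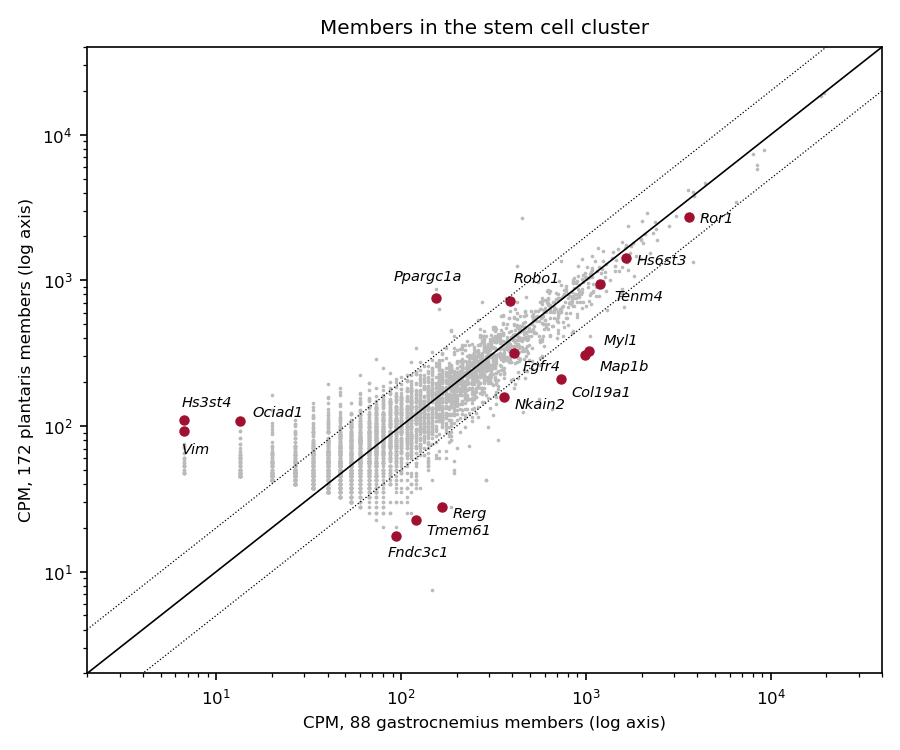
CPM in the 172 plantaris stem-cluster members (y, log axis) against CPM in the 88 gastrocnemius ones (x, log axis), 1 grey point for each of 4633 genes with UMIs in both; red points are genes named in the text, and dotted lines mark 2-fold. Hs6st3, Fgfr4 and Ror1 lie near the diagonal, Col19a1 and Map1b below it and Hs3st4 above it.

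Myl1, Ppargc1a and Myh1, genes of the muscle fibre, differed between the members of the 2 muscles in the direction seen in the other nuclei. Myl1, a fast myosin light chain, had ratios of -1.67 (-2.02 to -1.32) in stem-cluster members and -1.88 in other nuclei. Ppargc1a, the coactivator of mitochondrial genes, had 23 and 301 UMIs, a ratio of 2.30 (1.68 to 2.98), beside 1.10 in other nuclei. Myh1, the myosin of type IIx fibres, had 0 UMIs in gastrocnemius stem-cluster members and 165 in plantaris ones. With the 0 set to the floor of 3 UMIs its ratio was 4.37, beside 1.90 in other nuclei. Of the 14 fibre-type genes measured in stem-cluster members, 4 were 2-fold higher and 4 were 2-fold lower in plantaris, beside 9.31% and 3.49% of all genes. Fibre transcripts in the members also lay above the other mononuclear classes pooled (Myl1 by 0.73 and 0.65). Macrophages were near the stem-cluster members in the myonuclear markers, as given above. The part of free fibre RNA in the members was not tested.

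Of 29 stress and early response genes 10 were measured between the muscles over all members, and 3 of them had a counting interval above 0, beside 7.37% of all genes. All 10 ratios lay above 0, 7 of them by 2-fold (10.3% of all genes), with a median of 1.23. Nr4a1, an early response nuclear receptor, had 0.19 (-0.28 to 0.68), and 0.02 in stem-cluster members. Only 3 could be measured in stem-cluster members, and 2 of those were 2-fold higher, beside 9.31% of all genes. Hsph1, a heat shock protein, had 5 and 98 UMIs in members and a ratio of 2.28 (1.01 to 3.94), beside 2.73 in other nuclei. Nr4a3, a relative of Nr4a1, had 0 and 55 UMIs in members, a ratio of 2.19 with the 0 set to the floor, beside 3.19 in other nuclei. Hsp90ab1, a chaperone, had 6 and 138 UMIs and 2.52 (1.36 to 3.99), beside 2.01. For these 3 genes the other nuclei of the library went the same way, and what differed in the handling of the 2 muscles was not given in the labels.

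Several genes that led the comparison over all members had most of their UMIs in nuclei outside the stem cell cluster. Higher in plantaris members were Mras (0 and 50 UMIs), Dnm1 (3 and 104), Pcyt2 (0 and 40), Jmjd6 (0 and 39), Plcxd3 (0 and 39), Tmed5 (1 and 56), Mpped2 (1 and 49) and Slc18a1 (0 and 33). Within the cluster these counts were 0 in gastrocnemius for all 8 genes and between 1 (Slc18a1) and 22 (Tmed5) in plantaris. The Slc18a1 UMIs lay in 5 nuclei, with 17 in one. Higher in gastrocnemius members were Gna14, Tenm2, Zfp804b and Gucy1a1, none of which had a UMI in the 88 gastrocnemius stem-cluster members. For Tenm2, 35 of its 36 UMIs lay in 1 nucleus. Tmpo, which encodes a nuclear lamina protein, had a ratio of -1.83 over all members beside -1.21 in the other nuclei.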

How the data were processed

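Single nuclei of gastrocnemius and plantaris were profiled, 1 library per muscle. Per the labels' protocols, minced muscle was homogenised with beads and filtered, and nuclei stained with PI were sorted for the 10x 3' kit v3.1. Cell Ranger 6.0.1 and the mouse build mm10 are named, per the submitters' processing notes. The table deposited by the authors holds whole-number counts of UMIs for 32285 genes and 16530 nuclei, and a second deposited table assigns barcodes to libraries. The sources used here do not give the annotation, how nuclei were called, whether intronic reads were counted, or how many mice were used and of which sex.

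Members had 1 or more UMI of at least 2 of the 4 rule genes. The members and the 14 gene lists were chosen with earlier results of these data known. Counts were summed over the nuclei of a set in each library and scaled to 1000000 (CPM). Ratios carry exact conditional binomial intervals, shares Clopper-Pearson intervals and CPM exact Poisson intervals, all at 95% and for counting error only. No test was run, because nuclei of 1 library are not replicates. A gene counted between members and other nuclei at 4-fold in both libraries, and between muscles at 2-fold, with 20 or more UMIs in members (for lower genes, 20 expected). In ratios, 0 UMIs were replaced by a floor of 3 per library, and no ratio was given where both counts were at or under it.

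Clustering left out 6 nuclei, none a member, that had fewer than 200 genes or at least 5% of UMIs from mitochondrial genes. Each nucleus was scaled to 10000 counts before taking logs, and 2000 variable genes, 30 components and 15 neighbours were used with leiden at resolution 1 and seed 0. This gave 21 clusters, named from marker lists, so that each name stands for nuclei that resemble the type. A type was named from 3 markers, each with at least 10 UMIs, a level of at least 20% of its top cluster and 4-fold its median over clusters; for myonuclei 3 markers had to reach 60% of the top cluster. These cut-offs were set on seeing the clusters. No doublet caller was run, and no library correction was applied.

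Named genes were, for members against other nuclei, the 20 with the highest lower interval bound in both libraries among genes with 20 or more UMIs in each, without the rule genes. For the muscles they were the 10 in each direction with the interval furthest from 0, among genes at least as high in members as in other nuclei, and from each list up to 6 genes by UMIs plus defining genes. Others named were chosen after their values were seen: Spry1, Gas1, Chrdl2, Btg1, Notch1, Epha4, Gli2, Pdgfrl, Hes1, Hey1, Jag1, Tek, Tob2, Yap1, Eya4 and Ccnd2, some of them as genes of a list that passed a rule. Repeats used 3 of the 4 genes, the filter on nuclei, thinning to 1000 UMIs, stem-cluster members, members low in myonuclear markers, mean CPM of nuclei, median-of-ratios scaling, other UMI minimums and another comparator. Values of a few genes that these rules name are not reported here. The scripts were tested on simulated data. Software was Python 3.11.15, numpy 2.4.6, pandas 2.3.3, scipy 1.17.1, scanpy 1.11.5, anndata 0.12.19, scikit-learn 1.9.0, igraph 0.11.9, leidenalg 0.10.2 and matplotlib 3.10.9. Gene positions came from GENCODE M21 and promoters from RefSeq.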

Additional observations from a re-analysis of the deposited data

How the results depend on the processing

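With 1 library per muscle no difference can be set against the spread between animals, and depth limits genes with few UMIs. No paired analysis was possible because each muscle had 1 library, and no label ties a library to particular mice. The count of genes higher in members, 208, was 127 after thinning to 1000 UMIs, 338 in members low in myonuclear markers (38 gastrocnemius and 81 plantaris nuclei), 123 with a minimum of 50 UMIs, 386 with a minimum of 1 UMI and 73 against the other mononuclear classes. The count lower in members, 1, was 2 with 3 of the 4 genes, 47 after thinning, 6 in stem-cluster members, 200 in members low in myonuclear markers, 23 by mean CPM and 11 against the mononuclear classes. The 200 came from members chosen for few fibre transcripts, so it is a description only. The count higher in plantaris, 782, was 123 after thinning, 432 in stem-cluster members, 300 in members low in myonuclear markers, 254 with a minimum of 50 UMIs and 1270 with 1. The count lower in plantaris, 238, was 91, 158, 85 and 780 after thinning, in members low in myonuclear markers and with minimums of 50 and 1, and 479 by mean CPM. The minimums change the number of genes tested, and so do the nuclei used. Between the muscles 4640 genes were tested in stem-cluster members, where 432 was 9.31%, and 7567 in all members, where 782 was 10.3%. Against the mononuclear classes 73 was 0.895% of 8152 genes, beside 2.67% of 7783 for 208. The other counts are given without the number tested and cannot be read as shares. The cause of the moves was not tested. The share of members fell with 3 of the 4 genes to 0.787% in gastrocnemius and 1.32% in plantaris, and with thinning to 0.795% and 1.19%. The plantaris to gastrocnemius ratio of Slc18a1, 1.45 against the floor, became -0.062 by mean CPM, and that of Tenm2, -2.53, became 0.32 in stem-cluster members, where gastrocnemius has none. The sign held for the other ratios of the 20 genes highest in members and the 20 named between the muscles, 59 of 60 by mean CPM and 54 of 55 in stem-cluster members. Median-of-ratios scaling shifted all ratios between the muscles by 0.09 on the log2 scale.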

Other observations

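No gene of the limb position and clock lists passed the 4-fold rule in the members. Of 36 genes that place a muscle along the limb, 14 were measured, with medians of 0.28 in gastrocnemius and -0.04 in plantaris over all members, beside 0.30 and 0.26 for all genes. Hoxc8, a homeobox gene, had log2 ratios over other nuclei of 0.31 (-0.43 to 0.96) and -0.23 (-0.70 to 0.19). Tbx15, a T-box factor, lay lower in members at -0.60 and -0.48. Between the muscles Meis1, a partner of Hox proteins, had -1.34 (-2.00 to -0.65) over all members, beside -0.95 in the other nuclei.

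Of 19 circadian clock genes 18 were measured, with medians of 0.02 and -0.35, below those of all genes. In plantaris 8 of the 18 had a counting interval below 0 and 5 above. Npas2, a partner of Arntl in the core clock, was higher in members at 2.54 (1.95 to 3.08) and 1.62 (1.36 to 1.86), but within 0.03 and -0.15 of the other mononuclear classes. Rora, a nuclear receptor that drives Arntl, had 2068 and 6020 UMIs in members and ratios of 0.69 (0.63 to 0.76) and 0.43 (0.39 to 0.46). Clock had 0.35 and 0.33, and Per3 0.06 and -0.48.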
